A study of Mus musculus with 12 samples.

Results

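The RAB small GTPases were followed in RAW264.7 cells, an established mouse macrophage-like line, across the 4 conditions of a salt and endotoxin experiment. A gene was taken as a member when the array named it Rab followed by a number, with at most 1 letter and further digits after it. It also needed a probe flagged well above background throughout 1 or more of the 4 groups. Of 58 genes with such a name (83 probes), 47 met the signal condition (65 probes), out of 13856 named genes on the array that met it. NS cells had no NaCl added and no lipopolysaccharide (LPS, the bacterial outer membrane component that activates macrophages through Toll-like receptor 4). HS cells had 40 mM NaCl added, NS+LPS cells had LPS at 10 ng/ml, and HS+LPS cells had both. All were harvested after 24 h, each group had 3 arrays, and all 12 arrays came from this 1 cell line. The labels do not say whether replicates came from separate cultures, so a p-value here covers the spread among these samples alone, and that spread could be technical.

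Rab proteins are molecular switches of membrane traffic. Each cycles between a GDP-bound form, held in the cytosol by a GDP dissociation inhibitor, and a GTP-bound form on 1 kind of membrane, where it recruits effectors such as motors, tethers and kinases. Exchange factors load GTP and GTPase-activating proteins, most with a TBC domain, turn the switch off. In macrophages, Rab proteins guide phagosome maturation, delivery of Toll-like receptors and secretion of cytokines. Rab15 acts at early and recycling endosomes and slows receptor entry in other cell types.

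The signal is the processed spot intensity divided by the 75th percentile of its own array, so a value of 1 equals that percentile. That percentile lay between 411 and 783 intensity units, with the lowest values, 411 to 438, on the HS+LPS arrays. From 43.7% to 52.8% of probes were well above background on an array, and 44 to 47 of the 47 Rab genes. All 9 macrophage markers checked were well above background on all 12 arrays, and all 4 epithelial markers were above on none. Of the B cell, T cell, fibroblast, and neutrophil and mast cell markers (4 each), Cd79b, Cd3e, Cd4 and Elane were above on all 12, and their part in the results was not tested. The 3 HS+LPS arrays shared a slide and a scan day with no other group, so in each comparison that uses them condition and slide cannot be told apart. NS, HS and 2 of the NS+LPS arrays were on a common slide.

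The 11 Rab genes that stayed under the signal condition were Rab25, Rab26, Rab27b, Rab30, Rab36, Rab38, Rab39b, Rab3b, Rab40b, Rab6b and Rab9b. Several of these, such as Rab3b and Rab38, are best known from neurons, endocrine cells or melanocytes. Of the 47 members, 42 were well above background on all 12 arrays, and Rab15, Rab17, Rab37, Rab42 and Rab44 were so on part of them. By current RefSeq symbols, Rab1 is Rab1a and Rab7l1 is Rab29. By their best-known site of action, 14 members were placed at early and recycling endosomes, 10 at late endosomes, lysosomes, phagosomes or autophagosomes, 10 at the endoplasmic reticulum and Golgi, 10 in secretion and surface delivery, and 3 elsewhere (Rab23 and Rab28 at cilia, Rab40c in a ubiquitin ligase).

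Rab15 had by far the widest range of any member. Its brighter probe (A_51_P419117, chr12:77898991-77899050 in mm9, minus strand, in the gene Rab15) read 0.0337, 0.0570 and 0.0525 on the 3 NS arrays. It read 2.97, 2.10 and 6.15 on the HS arrays, 0.597, 0.465 and 0.668 on the NS+LPS arrays and 69.0, 56.1 and 71.7 on the HS+LPS arrays. The 4 groups did not overlap and ran in the order NS, NS+LPS, HS, HS+LPS. In NS cells the probe was well above background on 2 of the 3 arrays, so the NS level is close to the limit of the measurement. Added salt raised Rab15 72.4-fold without LPS (log2 difference 6.18, SE 0.348, adjusted p = 1.81e-06) and 114-fold with LPS (6.84, SE 0.348, adjusted p = 3.16e-07). LPS raised it 12.2-fold without added salt (3.61, SE 0.348, adjusted p = 5.98e-06) and 19.3-fold with it (4.27, SE 0.348, adjusted p = 1.38e-06).

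**Figure D1:**
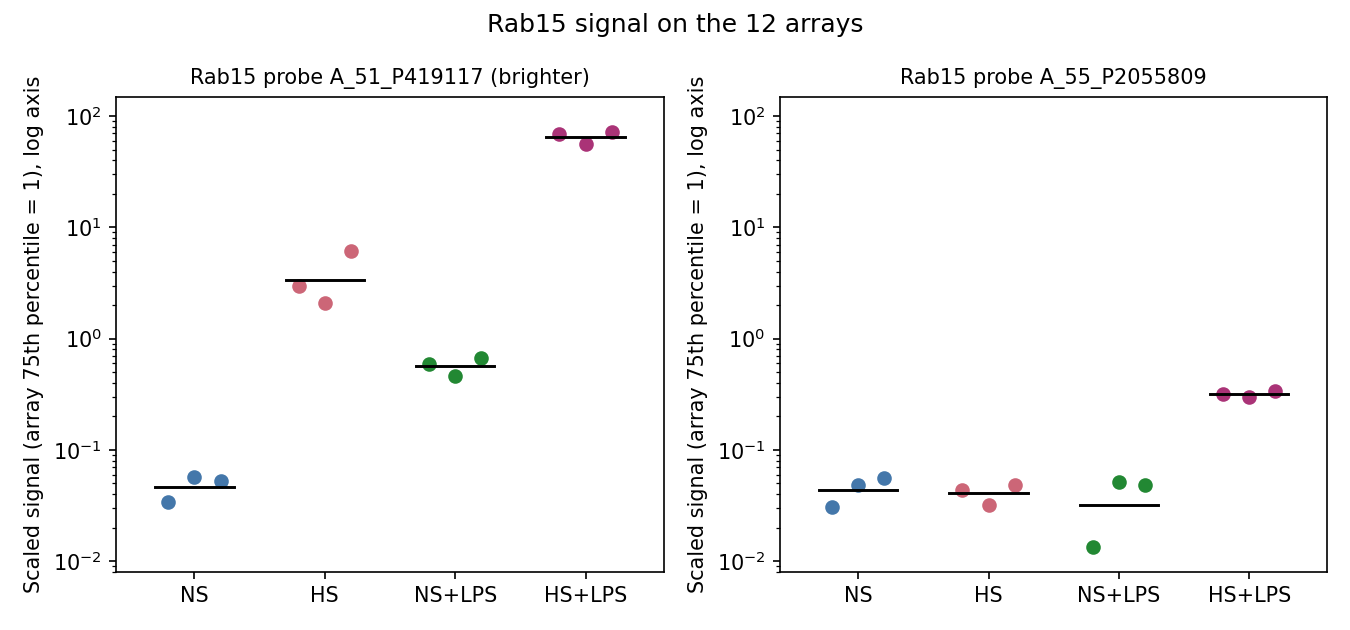
Scaled signal of both Rab15 probes on the 12 arrays, by group, with the array's 75th percentile as 1 and a log axis. Points are arrays and bars are means of the log2 values. The 3 HS+LPS arrays of the brighter probe sit between 56.1 and 71.7, above every other array, and the other probe stands above the rest in HS+LPS cells.

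The salt effect on Rab15 with LPS exceeded that without LPS by 0.66 on the log2 scale (95% confidence interval -0.44 to 1.76), and this interaction was not called (SE 0.493, adjusted p = 0.322). The interval allows both no difference and a further rise of over 3-fold. The interaction was called at 1.93 with another background correction (normexp, adjusted p = 0.00201). It was also called at 1.09 without HS replicate 3 (adjusted p = 0.0363), the HS array with the highest Rab15. With the mean of both probes it was 2.03, which is given with no test. The other probe, described next, met the signal condition through the HS+LPS arrays alone, so it had to be higher there. Normexp also gave smaller values where NS is the base, 4.64 for salt and 2.25 for LPS. The mean of both probes gave 3.04 and 5.07 for salt without and with LPS, and 1.59 and 3.62 for LPS without and with added salt. All 4 pairwise differences were called in every alternative that used the brighter probe alone.

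The other Rab15 probe (A_55_P2055809, chr12:77901109-77901168, minus strand, in the same gene) was dimmer and met the signal condition through the HS+LPS arrays alone, so it is described with no test. It read 0.0304, 0.0488 and 0.0559 on the NS arrays, 0.0435, 0.0321 and 0.0487 on the HS arrays and 0.0134, 0.0512 and 0.0486 on the NS+LPS arrays. Only the HS+LPS arrays, at 0.319, 0.300 and 0.337, were all well above background, and they did not overlap with the rest. Of the other arrays it was well above background on 2 in NS cells, none in HS cells and 1 in NS+LPS cells. The brighter probe was well above background on all 3 arrays of HS and of NS+LPS cells.

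RefSeq lists 4 start sites for Rab15, and the bases before the 2 of them that hold a match to a searched motif are shown, since Rab15 is the member that responded most. Each run is the 250 bases before the start site in GRCm38.p6, 5' to 3' on the minus strand, with the matches in capitals.
Rab15 start site 3, chr12:76818375-76818624: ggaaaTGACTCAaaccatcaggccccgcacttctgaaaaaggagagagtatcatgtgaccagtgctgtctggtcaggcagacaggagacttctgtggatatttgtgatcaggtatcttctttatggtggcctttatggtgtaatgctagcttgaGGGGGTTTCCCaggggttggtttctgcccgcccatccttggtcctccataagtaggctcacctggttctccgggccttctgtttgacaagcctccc
Rab15 start site 4, chr12:76813857-76814106: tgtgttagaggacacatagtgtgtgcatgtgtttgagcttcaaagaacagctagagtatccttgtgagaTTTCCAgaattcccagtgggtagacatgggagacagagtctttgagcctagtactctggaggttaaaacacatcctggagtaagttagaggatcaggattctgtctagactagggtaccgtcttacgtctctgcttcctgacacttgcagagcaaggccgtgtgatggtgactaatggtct
In the former, the capitals mark an AP-1 motif (TGANTCA) at position -245 from the start site and 3 overlapping matches to the NF-kB consensus at -96 and -95. In the latter they mark the NFAT5 core (TGGAAA, here on the other strand) at -181. Only this short core was searched for, so the match does not show a full NFAT5 site. NFAT5 is the transcription factor of the response to high salt, and NF-kB and AP-1 are activated by LPS. Both strands of the bases from 250 before to 50 after each start site were searched. Windows before the other start sites held none of these motifs. Such matches are common: of 32851 start sites in the table, 21.4% had the NFAT5 core, 7.81% the AP-1 motif and 8.46% the NF-kB consensus, against 20.4%, 3.7% and 5.56% of the 54 start sites listed for members that met the signal condition (48 of all 58 Rab genes had 1 or more listed). The interferon response core (ISRE) was in 3.44% of all and 1.85% of those 54. A match is a description of the letters and shows no binding.

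Genes beside Rab15 moved far less. Within 100 kb of its probes in mm9 the array holds Churc1 and Gpx2 (a glutathione peroxidase). Gpx2 read 0.453, 0.421 and 0.421 on the NS arrays and 0.571, 0.582 and 0.553 on the HS arrays. These groups did not overlap, but the difference was not called (0.40, SE 0.177, adjusted p = 0.127). With LPS, Gpx2 rose with salt (0.52, SE 0.177, adjusted p = 0.0325), with HS+LPS replicate 3 well above the other 2 (0.311, 0.308 and 0.537); the difference without that array was not computed. For these neighbours the p-values were adjusted over all probes that met the signal condition, named or not. The brighter Churc1 probe fell with salt without LPS (-0.18, SE 0.0427, adjusted p = 0.0118) and was not called with LPS (-0.02, SE 0.0427, adjusted p = 0.767).

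Rep15, which encodes an effector that binds GTP-bound Rab15 at recycling endosomes, read 1.70, 1.66 and 1.59 on the NS arrays and 2.22, 2.23 and 2.19 on the HS arrays. It read 1.30, 1.41 and 1.29 on the NS+LPS arrays and 1.53, 1.32 and 1.41 on the HS+LPS arrays. Rep15 was thus highest in HS cells, where it did not overlap with any other group. Salt raised it without LPS (0.42, SE 0.0577, adjusted p = 3.24e-04), and with LPS the difference was 0.09 (adjusted p = 0.214). LPS lowered it on either background, by 0.31 (adjusted p = 7.62e-04) and 0.65 (adjusted p = 2.81e-06) on the log2 scale. The Rab15 pattern over the 12 arrays was most closely followed, among genes outside the family, by Ik (Pearson r 0.994), Sh3bp5 (0.992), Zfyve26 (0.992), Gm6209 (0.991) and Slc6a13 (0.989). These are descriptions over 12 arrays in 4 groups, and the sizes differ widely: the mean of Ik rose from 95.5 in NS cells to 197 in HS+LPS cells.

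Across the family, a member was called when its p-value, adjusted over the 13856 genes, was under 0.05. Salt without LPS called 13 of 47 members, 5 higher and 8 lower, where 37% of all genes were called, 18.2% higher and 18.8% lower. Salt with LPS called 32, 16 in each direction, against 57.5% of all genes (26.2% higher, 31.4% lower). LPS without added salt called 33, 19 higher and 14 lower, against 63.8% (28.6% and 35.1%), and LPS with added salt called 36, 23 higher and 13 lower, against 72.3% (30.5% and 41.8%). The members called higher with LPS include Rab10 and Rab6a, whose probes disagreed, and Rab44, well above background on HS+LPS arrays alone. The shares of Rab genes called, 27.7%, 68.1%, 70.2% and 76.6%, lay below the share of all genes in the first comparison and above it in the other 3, on 47 genes. The median member moved by -0.0646, -0.0347, 0.0554 and 0.156 in these comparisons, against 0.0173, -0.0429, -0.0338 and -0.108 over all genes. Few members passed 2-fold: 1, 4, 5 and 3, against 2.57%, 6.19%, 12% and 15.1% of all genes. The last 3 of these counts each include Rab44, as does the count called higher by salt with LPS. Rab44 met the signal condition through the HS+LPS arrays alone, so its part in these counts is no finding. Arrays of the compared groups did not overlap for 23, 34, 35 and 36 members, against 50.5%, 64.2%, 69.6% and 74.9% of all genes. Among the 42 members well above background on all 12 arrays, 12, 28, 29 and 33 were called, against 39.7%, 58.9%, 67.6% and 74.2% of the 12164 such genes. Rab17, which is known from polarised epithelia, was the 1 member called in none of the 4, but its differences were unsettled. For salt with LPS it was -0.89 (adjusted p = 0.0866), and -1.40, which was called, without HS+LPS replicate 1. For LPS with added salt it was -0.66 (adjusted p = 0.169), against -1.17 without that array and 0.25 with normexp, both called.

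**Figure D2:**
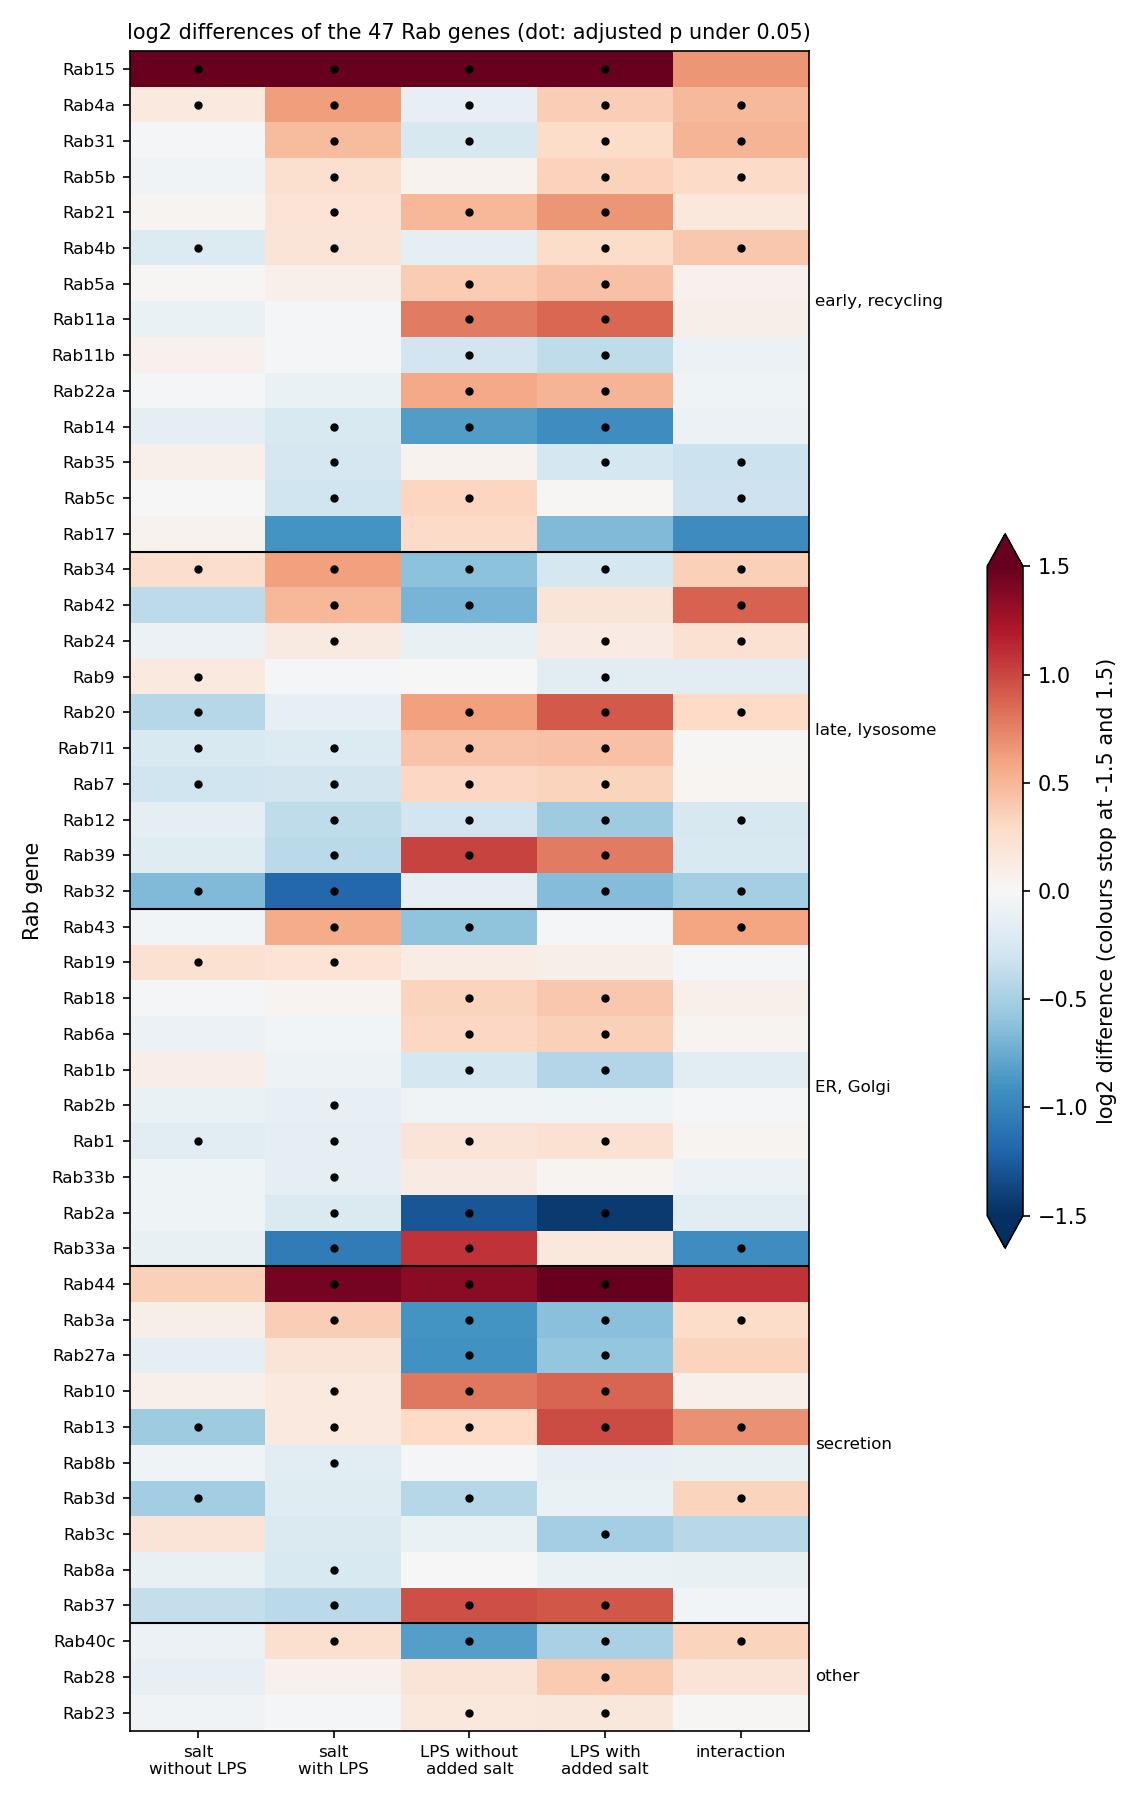
log2 differences of the 47 Rab genes in the 4 pairwise comparisons and the interaction, with rows grouped by site of action and ordered by the salt effect with LPS. Red is higher, blue is lower, colours stop at -1.5 and 1.5, and a dot marks an adjusted p under 0.05. Rab15 is past the end of the scale in all 4 pairwise comparisons, and Rab2a and Rab14 are blue in both LPS columns.

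Without LPS, Rab32 showed the largest fall of the family with added salt. This gene, which builds lysosome-related organelles, read 6.81, 6.95 and 6.33 on the NS arrays and 4.15, 4.62 and 3.90 on the HS arrays. Rab20, which takes part in phagosome maturation, read 1.12, 1.16 and 1.03 on the NS arrays and 0.800, 0.855 and 0.807 on the HS arrays. Both were lower on every HS array than on any NS array. Rab32 fell by 0.67 on the log2 scale (SE 0.0697, adjusted p = 6.20e-05), and Rab20 by 0.43 (SE 0.0491, adjusted p = 1.11e-04). Rab7, the Rab of late endosomes and their fusion with lysosomes, also fell (8.56, 8.73 and 9.18 on the NS arrays and 7.04, 7.20 and 7.34 on the HS arrays; -0.29, SE 0.0595, adjusted p = 0.00346), as did Rab7l1, which recruits the kinase Lrrk2 (-0.22, SE 0.0590, adjusted p = 0.0138). Of the 10 members at these compartments, 4 fell, against 18.8% of all genes, and 2 rose, Rab34 and Rab9, against 18.2%. The Rab7l1 call ended without HS replicate 1 (adjusted p = 0.0503).

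Among the 10 secretory members, none rose and 2 fell, where 18.2% and 18.8% of all genes rose and fell. Rab13, which carries cargo to the cell surface, read 0.707, 0.659 and 0.683 on the NS arrays and 0.441, 0.487 and 0.488 on the HS arrays, a fall of 0.53 (SE 0.0559, adjusted p = 6.30e-05). Rab3d, a Rab of secretory granules, read 3.32, 3.46 and 3.34 on the NS arrays and 2.26, 2.65 and 2.19 on the HS arrays, a fall of 0.52 (SE 0.0770, adjusted p = 5.59e-04). Neither gene overlapped between the groups. Rab4b of recycling endosomes (-0.21, adjusted p = 0.0124) and Rab1 of the route from the endoplasmic reticulum to the Golgi (-0.17, adjusted p = 0.00576) fell by less.

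Apart from Rab15, the rises were small. Rab34, which positions lysosomes and acts in phagosome maturation, read 18.0, 16.3 and 16.1 on the NS arrays and 20.1, 19.7 and 20.4 on the HS arrays, a rise of 0.26, SE 0.0549, adjusted p = 0.00442. Rab19, a Golgi Rab, rose by 0.23, SE 0.0574, adjusted p = 0.0102. Both were higher on each HS array than on any NS array. Rab4a, of fast recycling, rose by 0.14 (adjusted p = 0.0282) and Rab9, of the return from late endosomes to the Golgi, by 0.14 (adjusted p = 0.0328). These last 2 calls were weak: with 1 array left out Rab4a ran from 0.12 to 0.17 (highest adjusted p = 0.0972) and lost its call when NS replicate 2, NS replicate 3, HS replicate 2 or HS replicate 3 was left out. With the mean of its probes it was 0.05, adjusted p = 0.493. Rab9 ran from 0.11 to 0.17 (highest adjusted p = 0.113) and lost it when NS replicate 1, NS replicate 3, HS replicate 2 or HS replicate 3 was left out. With quantile normalization, 5 members were called higher and 14 lower in place of 5 and 8.

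With LPS present, Rab32 showed the largest fall with salt. It read 6.17, 5.92 and 6.07 on the NS+LPS arrays and 2.68, 2.86 and 2.51 on the HS+LPS arrays, with no overlap, a fall of 1.18 (SE 0.0697, adjusted p = 7.11e-07). Rab33a, a Golgi and vesicle Rab that is dim here, read 0.167, 0.170 and 0.171 on the NS+LPS arrays and 0.0929, 0.0945 and 0.0624 on the HS+LPS arrays. It fell by 1.05 (SE 0.138, adjusted p = 1.33e-04), but by 0.24 with normexp. Rab7 (-0.27, adjusted p = 0.00325), Rab7l1 (-0.21, adjusted p = 0.0126), Rab12 (-0.38, adjusted p = 4.72e-04) and Rab14 (-0.23, adjusted p = 0.00344) also fell. Rab12 acts in the degradation of recycling receptors and Rab14 between endosomes and the Golgi. Of the 10 late endosomal and lysosomal members, 5 fell and 3 rose, against 31.4% and 26.2% of all genes. The 10 endoplasmic reticulum and Golgi members had as many falls, 5, and 2 rises. Both lists include members whose call ended without a single array, as given below.

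Rab39 and Rab37 were lower in HS+LPS cells, but neither call was firm. Rab39, which acts at phagosomes, read 0.134, 0.116 and 0.134 on the NS+LPS arrays and 0.0884, 0.0909 and 0.111 on the HS+LPS arrays (-0.41, SE 0.136, adjusted p = 0.0260). With 1 array left out its difference ran from -0.51 to -0.35 (highest adjusted p = 0.0865), and the call ended when replicate 1 or 3 of NS+LPS, or replicate 1 or 2 of HS+LPS, was left out. It also ended in 5 other alternatives, among them normexp (-0.03, adjusted p = 0.785). Rab37, a Rab of secretory granules, read 0.113, 0.126 and 0.122 on the NS+LPS arrays and 0.109, 0.0791 and 0.0874 on the HS+LPS arrays (-0.40, SE 0.129, adjusted p = 0.0223). It ran from -0.53 to -0.30 with 1 array left out and lost its call without replicate 2 or 3 of either group (highest adjusted p = 0.0813). The call ended in 5 other alternatives as well, and normexp turned its direction (0.07, adjusted p = 0.336).

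Of the 14 early and recycling members, 6 rose and 3 fell with salt in LPS-treated cells, against 26.2% and 31.4% of all genes. Rab4a read 1.13, 1.07 and 1.13 on the NS+LPS arrays and 1.73, 1.65 and 1.78 on the HS+LPS arrays and rose by 0.63, SE 0.0445, adjusted p = 2.10e-06. Rab31, which acts between the Golgi and early endosomes, read 15.8, 14.3 and 13.9 on the NS+LPS arrays and 19.3, 20.6 and 21.4 on the HS+LPS arrays and rose by 0.48, SE 0.0667, adjusted p = 1.88e-04. The groups did not overlap for either gene. Rab34 (11.2, 10.5 and 11.0 on the NS+LPS arrays and 16.8, 15.8 and 17.6 on the HS+LPS arrays; 0.61, SE 0.0549, adjusted p = 9.76e-06) and Rab43, a Golgi Rab (4.93, 5.11 and 5.38 on the NS+LPS arrays and 7.81, 7.19 and 7.57 on the HS+LPS arrays; 0.55, SE 0.0441, adjusted p = 4.68e-06), rose by similar amounts. Rab44, a large Rab with calcium-binding motifs, met the signal condition only through the HS+LPS arrays (0.101, 0.0776 and 0.111). It was well above background on none of the other 9 arrays (0.0465, 0.0226 and 0.0414 on the NS+LPS arrays), so it had to be higher there and no test is given, though the counts of called members include it. Setting the HS+LPS mean against the lowest signal that counts as well above background gives at least 1.84-fold for salt with LPS. This bound is for the scaling used here: with normexp the fitted log2 difference was 0.60, which is below it.

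Of the 32 calls for salt with LPS, 17 held in every alternative and 15 were lost in 1 or more, the largest number of any comparison. Leaving out 1 array left 22 to 28 members called, with 22 without HS+LPS replicate 3 and 23 without NS+LPS replicate 1. Beside Rab37 and Rab39, members whose call ended without a single array of either group were Rab42 (0.27 to 0.67, adjusted p = 0.129; replicate 1 or 3 of NS+LPS or 2 or 3 of HS+LPS), Rab21 (0.14 to 0.25, adjusted p = 0.0644; replicate 1 of NS+LPS or 3 of HS+LPS) and Rab10 (0.13 to 0.18, adjusted p = 0.0817; replicate 1 or 2 of NS+LPS or 2 or 3 of HS+LPS). The same held for Rab13 (0.12 to 0.19, adjusted p = 0.143; replicate 1, 2 or 3 of NS+LPS or 1 or 3 of HS+LPS), Rab24 (0.10 to 0.17, adjusted p = 0.0785; replicate 2 of NS+LPS or 1 or 3 of HS+LPS), Rab2b (-0.15 to -0.10, adjusted p = 0.140; replicate 1 or 3 of NS+LPS or 2 or 3 of HS+LPS) and Rab33b (-0.19 to -0.12, adjusted p = 0.143; replicate 1 or 3 of NS+LPS or 1, 2 or 3 of HS+LPS), and for Rab8b (-0.20 to -0.13, adjusted p = 0.0766; replicate 1 of NS+LPS or 1 of HS+LPS), Rab2a (-0.28 to -0.16, adjusted p = 0.152; replicate 1 or 2 of NS+LPS or 1 or 3 of HS+LPS) and Rab8a (-0.26 to -0.20, adjusted p = 0.0860; replicate 1 or 3 of NS+LPS or 1 or 3 of HS+LPS). Ranges are the lowest and highest log2 difference with 1 array of either group left out in turn, with limma's highest adjusted p among those fits.

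The salt effect differed with LPS for 18 of 47 members, by the interaction term of the fit, where 36.2% of all genes were called (17 of the 42 on all 12 arrays, against 37.5%; none was called and past 2-fold, against 4.45%). It was higher with LPS for 13 and lower for 5, against 17.4% and 18.8% of all genes, and with quantile normalization the split was 15 to 3 (58.1% of all called genes higher, against 48% here). Rab13 fell with salt without LPS and was higher with salt in LPS-treated cells (0.849, 0.846 and 0.816 on the NS+LPS arrays and 0.973, 0.871 and 0.943 on the HS+LPS arrays), a difference between the effects of 0.68, SE 0.0790, adjusted p = 1.84e-04. Its rise with LPS present (0.15, SE 0.0559, adjusted p = 0.0418) lost its call in 12 of 16 alternatives, among them leaving out any NS+LPS array or HS+LPS replicate 1 or 3 (highest adjusted p with 1 array left out = 0.143). Rab4b likewise fell without LPS and rose with it (5.59, 5.43 and 5.67 on the NS arrays, 4.58, 5.14 and 4.72 on the HS arrays, 5.31, 5.01 and 4.92 on the NS+LPS arrays, and 5.71, 6.12 and 5.60 on the HS+LPS arrays; interaction 0.40, SE 0.0767, adjusted p = 0.00295). Rab43 (0.59, SE 0.0623, adjusted p = 1.05e-04), Rab31 (0.51, SE 0.0944, adjusted p = 0.00258) and Rab4a (0.49, SE 0.0630, adjusted p = 3.55e-04) responded more to salt with LPS. Rab15, Rab34, Rab4a and Rab19 were called higher with salt in both states, and Rab32, Rab7, Rab7l1 and Rab1 lower in both. With LPS present, the Rab19 call was lost under normexp (0.07, adjusted p = 0.262). The Rab1 call with LPS present was lost with quantile normalization (-0.05, adjusted p = 0.381) and with the deposited value table (-0.06, adjusted p = 0.271).

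**Figure D3:**
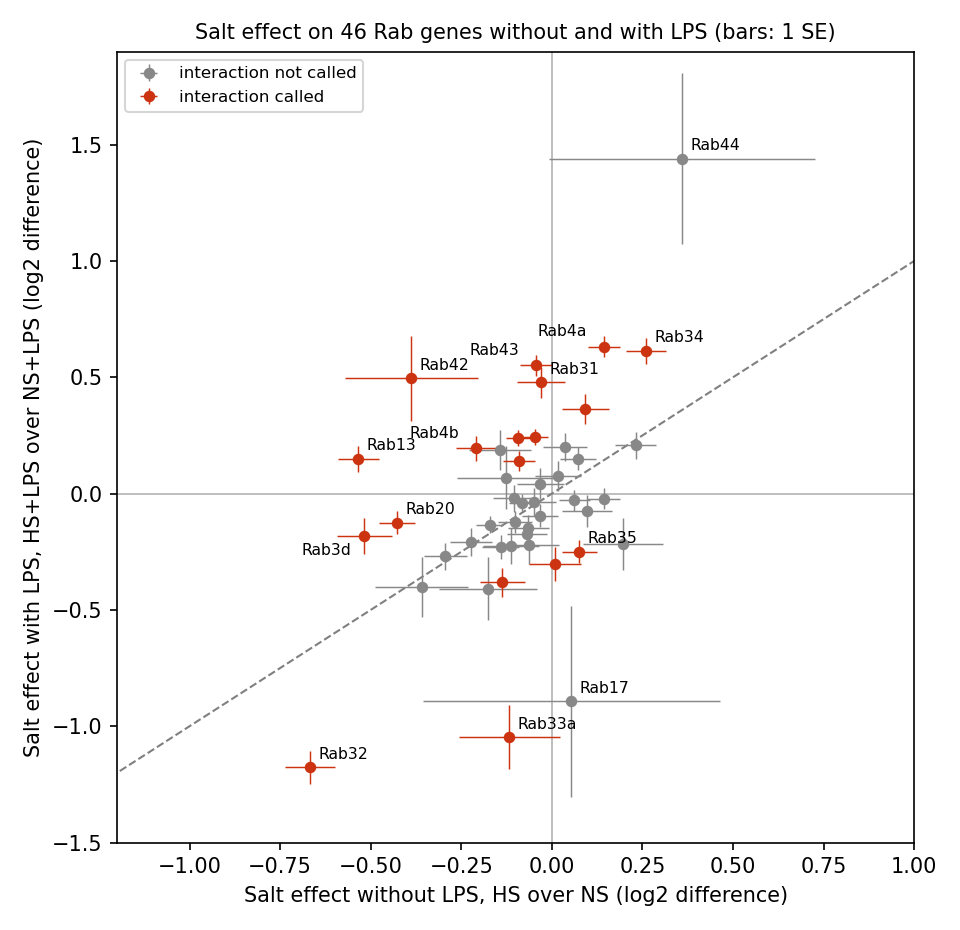
Salt effect with LPS (vertical) against salt effect without LPS (horizontal) for 46 Rab genes, as log2 differences with bars of 1 SE; Rab15, at 6.18 and 6.84, is outside the axes and not drawn. On the dashed line both effects are equal, and red points were called in the interaction test. Rab32 and Rab33a lie below the line and Rab13, Rab42, Rab43, Rab31, Rab4a and Rab34 above it.

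The 5 members with a lower salt effect under LPS were Rab33a (-0.93, SE 0.196, adjusted p = 0.00497), Rab32 (-0.51, SE 0.0985, adjusted p = 0.00322), Rab35, Rab5c and Rab12. Rab33a rose with LPS in the absence of added salt and was at 0.0929, 0.0945 and 0.0624 in HS+LPS cells, against 0.0678, 0.0713 and 0.0819 in HS cells. Its interaction was -0.29 with normexp and was not called with quantile normalization. Rab32 fell on both backgrounds and further with LPS. The call of Rab42 (0.88, SE 0.260, adjusted p = 0.0240), a dim gene, ended without NS replicate 1 or 3, HS replicate 2 or 3, or HS+LPS replicate 3 (values 0.66 to 1.06 with 1 array left out, highest adjusted p = 0.0559). Those of Rab3d, Rab3a, Rab12 and Rab5c ended without 8 or 9 of the 12 arrays in turn, with adjusted p up to 0.0786, 0.0912, 0.111 and 0.0797.

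LPS lowered Rab2a more than any other member on both salt backgrounds, and Rab14 fell on both as well. Rab2a, of traffic between the endoplasmic reticulum and the Golgi, read 2.96, 3.35 and 3.50 on the NS arrays, 2.90, 3.21 and 3.26 on the HS arrays, 1.47, 1.34 and 1.24 on the NS+LPS arrays, and 1.10, 1.22 and 1.14 on the HS+LPS arrays. Rab14 read 41.3, 37.9 and 38.1 on the NS arrays, 33.8, 36.2 and 36.4 on the HS arrays, 22.6, 21.0 and 22.0 on the NS+LPS arrays, and 18.0, 19.3 and 18.7 on the HS+LPS arrays. In both genes every array with LPS was below every array without. Rab2a fell by 1.28 without added salt (SE 0.0828, adjusted p = 2.76e-07) and by 1.43 with it (SE 0.0828, adjusted p = 1.01e-07). Rab14 fell by 0.84 and 0.93 (SE 0.0509, adjusted p = 1.67e-07 and 7.09e-08).

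Rab27a and Rab3a, both of regulated secretion, also fell with LPS. Rab27a, which docks secretory lysosomes and exosome-bearing endosomes, read 0.611, 0.658 and 0.742 on the NS arrays, 0.589, 0.633 and 0.592 on the HS arrays, 0.378, 0.353 and 0.336 on the NS+LPS arrays, and 0.451, 0.379 and 0.389 on the HS+LPS arrays (LPS without salt -0.91, SE 0.0857, adjusted p = 5.02e-06; with salt -0.58, SE 0.0857, adjusted p = 1.35e-04). Rab3a read 2.18, 2.10 and 1.93 on the NS arrays, 2.23, 2.18 and 2.20 on the HS arrays, 1.06, 1.06 and 1.22 on the NS+LPS arrays, and 1.41, 1.39 and 1.49 on the HS+LPS arrays (without salt -0.90, SE 0.0644, adjusted p = 6.05e-07; with salt -0.63, SE 0.0644, adjusted p = 8.16e-06). Neither overlapped between cells with and without LPS. Rab40c of the ubiquitin ligase (-0.82, adjusted p = 8.09e-09; with salt -0.49, adjusted p = 3.87e-07) followed the same course.  Rab4a and Rab31 were lower with LPS alone (-0.12 and -0.24, adjusted p = 0.0378 and 0.00935) and higher with LPS in added salt (0.37 and 0.27, adjusted p = 2.86e-05 and 0.00410). The Rab4a fall lost its call in 12 of 18 alternatives, among them leaving out NS replicate 1 or 2 or any NS+LPS array (-0.14 to -0.09 with 1 array left out, highest adjusted p = 0.129). In added salt, Rab32 fell with LPS as well (-0.65, SE 0.0697, adjusted p = 1.09e-05), while without it the difference was -0.14 (adjusted p = 0.0942).

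**Figure D4:**
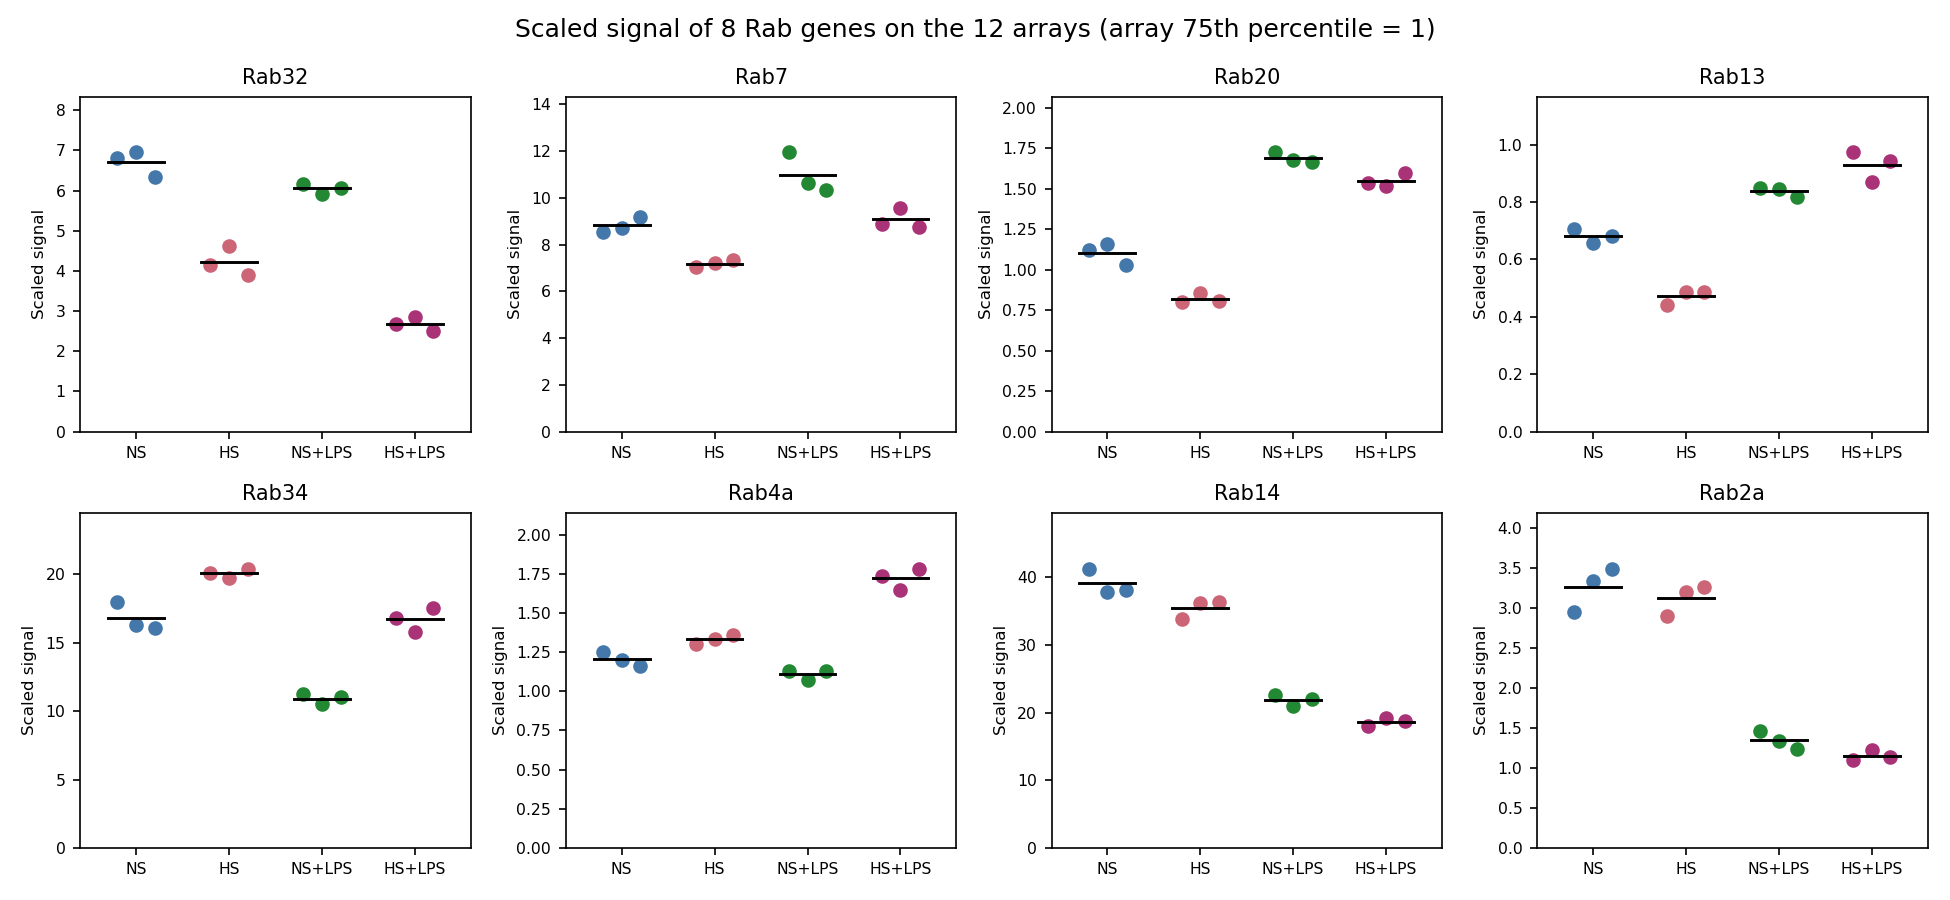
Scaled signal of 8 Rab genes on the 12 arrays by group, on linear axes that start at 0. Points are arrays and bars are group means. Rab32 falls with salt on both backgrounds, Rab13 is lowest on the HS arrays, Rab4a is highest on the HS+LPS arrays, and Rab14 and Rab2a are lower on all 6 arrays with LPS.

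Rab20 and Rab11a rose with LPS on both salt backgrounds. Rab20 read 1.12, 1.16 and 1.03 on the NS arrays, 0.800, 0.855 and 0.807 on the HS arrays, 1.73, 1.68 and 1.67 on the NS+LPS arrays, and 1.54, 1.52 and 1.60 on the HS+LPS arrays. It rose by 0.62 without salt (SE 0.0491, adjusted p = 1.38e-06) and by 0.92 with it (SE 0.0491, adjusted p = 5.75e-08). Rab11a, which marks the recycling compartment from which Toll-like receptor 4 reaches phagosomes, read 8.63, 7.95 and 8.39 on the NS arrays, 7.21, 7.86 and 8.18 on the HS arrays, 15.1, 13.9 and 13.7 on the NS+LPS arrays, and 13.8, 14.0 and 14.3 on the HS+LPS arrays. It rose by 0.77, SE 0.0579, adjusted p = 8.36e-07 without salt and by 0.86, SE 0.0579, adjusted p = 3.30e-07 with it. For Rab20 and Rab11a no array with LPS overlapped with one without. Of the 14 early and recycling members, 6 rose and 4 fell without salt, against 28.6% and 35.1% of all genes, and 9 rose and 3 fell with it, against 30.5% and 41.8%.

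Dim members rose too. Rab33a read 0.0771, 0.0820 and 0.0799 on the NS arrays and 0.167, 0.170 and 0.171 on the NS+LPS arrays, a rise of 1.09, SE 0.138, adjusted p = 5.03e-05. Rab39 read 0.0656, 0.0704 and 0.0555 on the NS arrays and 0.134, 0.116 and 0.134 on the NS+LPS arrays, a rise of 1.01, SE 0.136, adjusted p = 7.64e-05. Rab37 rose by 0.97, SE 0.129, adjusted p = 6.97e-05 without salt and 0.93, SE 0.129, adjusted p = 8.33e-05 with it. All of these lay far under the 75th percentile, and without added salt each was higher on all 3 arrays with LPS than on any NS array. Over the alternatives, the rises without salt were as low as 0.65 for Rab33a, 0.55 for Rab39 and 0.52 for Rab37, and each kept its call. In added salt Rab33a was not called (0.16, SE 0.138, adjusted p = 0.327) and its groups overlapped, but this was unsettled. A rise was called there with normexp (0.35, adjusted p = 2.9e-05) and without HS+LPS replicate 3 (0.35, adjusted p = 0.00191). It was also called with quantile normalization (0.41, adjusted p = 0.0486) and with the deposited value table (0.42, adjusted p = 0.0439). Rab13 rose by 0.98, SE 0.0559, adjusted p = 9.44e-08 in added salt. Rab44 read 0.0290, 0.0135 and 0.0140 on the HS arrays, none well above background, and by the same bound was at least 1.93-fold higher with LPS in added salt, while normexp gave a fitted log2 difference of 0.87, below that bound. Without salt neither group was well above background, so no fold is given for it.

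For 2 members, probes of the same gene were called in opposite directions with LPS. Rab10 delivers Toll-like receptor 4 to the macrophage surface. Its probe A_52_P262967 (chr12:3252628-3252687, mm9), which stands for the gene here, read 8.05, 7.63 and 7.06 on the NS arrays, 8.09, 7.76 and 8.03 on the HS arrays, 13.2, 12.9 and 13.2 on the NS+LPS arrays, and 14.0, 14.6 and 15.0 on the HS+LPS arrays. Its probe A_52_P590392 (chr12:3247758-3247817) read 9.63, 8.99 and 8.67 on the NS arrays, 10.6, 10.7 and 10.9 on the HS arrays, 4.46, 4.42 and 4.60 on the NS+LPS arrays, and 5.65, 5.76 and 6.12 on the HS+LPS arrays. With LPS the former rose by 0.79 without salt and 0.87 with it (SE 0.0506, adjusted p = 2.49e-07 and 1.06e-07), and the latter fell by 1.02 and 0.87 (SE 0.0485, adjusted p = 2.56e-08 and 7.53e-08). Every LPS array was above every other array for the former and below it for the latter. No single direction can therefore be given for Rab10: with the mean of both probes its LPS differences were -0.11 and -0.0022.

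Rab6a, of retrograde traffic to and within the Golgi, was the other. Its brighter probe (A_55_P2035937, chr7:107789641-107789700) rose with LPS by 0.31 without salt and 0.35 with it (SE 0.0382, adjusted p = 3.85e-05 and 1.18e-05). The other (A_55_P2139107, chr7:107790063-107790122), whose accession had no match in RefSeq, fell by 0.43 and 0.44 (SE 0.0512, adjusted p = 3.09e-05 and 2.18e-05), though its arrays with and without LPS overlapped when both salt states were pooled. Of 15 members with more than 1 usable probe, 4 had every probe called in 1 direction with LPS without salt, 5 some of them, 4 none, and 2 were Rab10 and Rab6a. For salt, no member had probes called in both directions. Among all named probes that met the signal condition, 62.9% were called with LPS without salt.

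**Figure D5:**
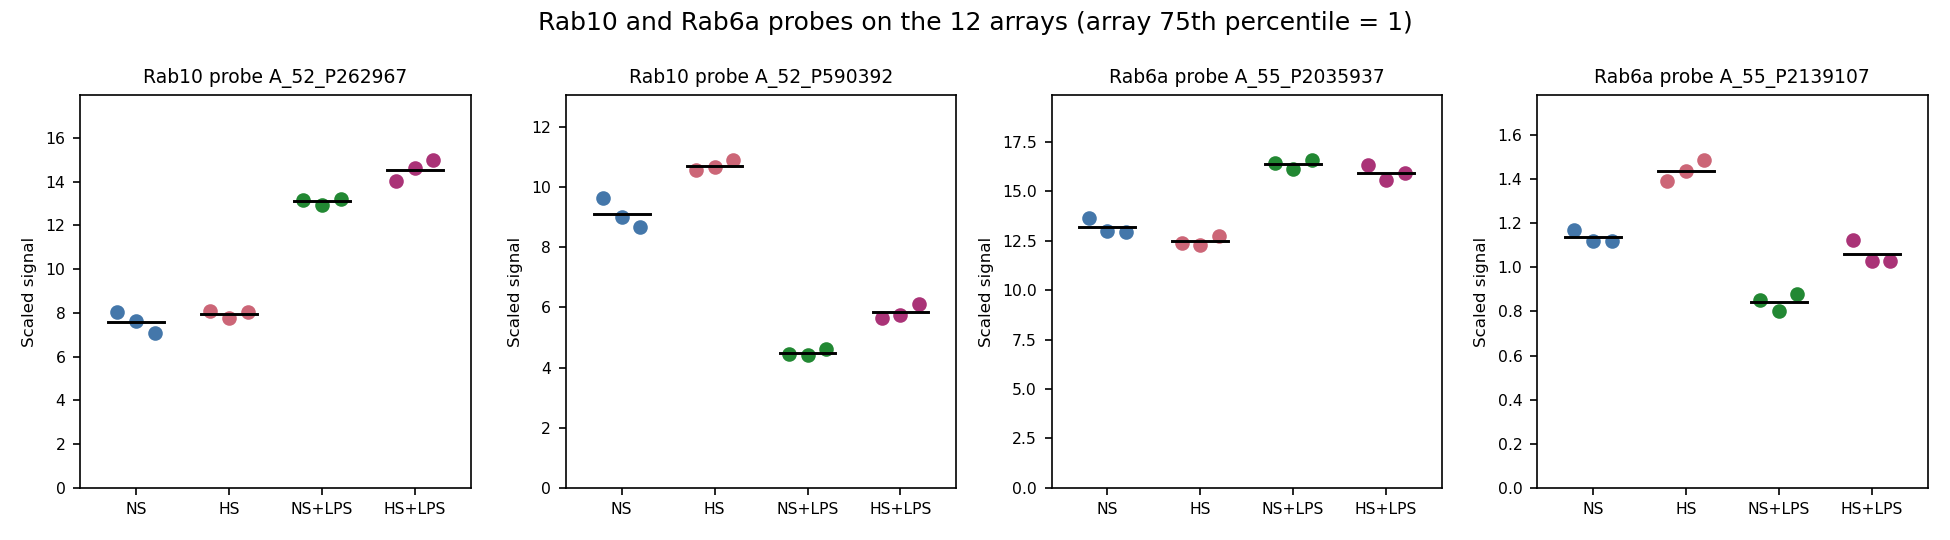
Scaled signal of both probes of Rab10 and of Rab6a on the 12 arrays, on linear axes that start at 0, with points for arrays and bars for group means. For Rab10, 1 probe is higher and the other lower on all 6 arrays with LPS. For Rab6a the groups with and without LPS are apart for the brighter probe and overlap for the other.

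The genes that switch Rab proteins off and on were compared from lists chosen by function. Of 33 measured GTPase-activating proteins, 17 rose and 5 fell with salt in LPS-treated cells, against 26.2% and 31.4% of all genes. Without LPS, 6 rose and 8 fell with salt, against 18.2% and 18.8%. With LPS alone, 4 rose and 14 fell, against 28.6% and 35.1%, and with LPS in added salt 8 rose and 6 fell, against 30.5% and 41.8%. The interaction called 14 of the 33 higher and none lower (11 to 15 higher and 0 to 1 lower over the alternatives), against 17.4% and 18.8% of all genes. By median the list stood at 0.213 in the interaction, against -0.0334 over all genes. Against the same shares, the interaction called 9 of 38 exchange factors higher and 4 lower (median 0.0964). For 42 effectors it called 9 higher and 3 lower (median 0.101).

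Sgsm3 was the largest rise of this list with salt on both backgrounds (1.88, 1.75 and 2.03 on the NS arrays and 3.92, 4.02 and 4.74 on the HS arrays; 1.16, SE 0.0758, adjusted p = 4.16e-06; with LPS 1.50, SE 0.0758, adjusted p = 2.98e-07). Its salt effect without LPS was 0.55 with the mean of its probes. Tbc1d2, which inactivates Rab7, read 16.0, 17.0 and 16.2 on the NS arrays and 12.1, 11.9 and 12.6 on the HS arrays and 6.61, 7.01 and 6.90 on the NS+LPS arrays and 11.8, 10.9 and 11.3 on the HS+LPS arrays. It fell with salt without LPS (-0.43, SE 0.0451, adjusted p = 6.55e-05), a call lost with the mean of its probes (-0.13, adjusted p = 0.220). It also fell with LPS (-1.26, SE 0.0451, adjusted p = 2.92e-09) and rose with salt in LPS-treated cells, with an interaction of 1.15, SE 0.0638, adjusted p = 3.12e-06 (0.55 with the mean of its probes). Tbc1d16, which acts on Rab4a, fell with LPS by 1.80 without salt and 1.06 with it (adjusted p = 6.47e-08 and 3.20e-06). Tbc1d4, the activating protein behind insulin-driven glucose transporter traffic, fell by 1.33 and 0.94 (adjusted p = 6.53e-09 and 8.47e-08). Sgsm2 (0.99, SE 0.0509, adjusted p = 3.21e-07) and Tbc1d10c (1.06, SE 0.168, adjusted p = 4.29e-04) rose with salt in LPS-treated cells. Usp6nl rose with salt without LPS (0.67, SE 0.112, adjusted p = 0.00114), and Rabgap1 with LPS in added salt (0.64, SE 0.148, adjusted p = 0.00262).

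Of 42 measured effectors, 5 rose and 8 fell with salt without LPS, 14 rose and 8 fell with salt with LPS, 14 rose and 16 fell with LPS without salt and 17 rose and 14 fell with LPS in added salt. Of all genes, 18.2% and 18.8%, 26.2% and 31.4%, 28.6% and 35.1%, and 30.5% and 41.8% rose and fell in these comparisons. Mical1, an actin-oxidising enzyme bound by several Rab proteins, moved most. It read 2.31, 2.33 and 2.18 on the NS arrays and 1.17, 1.21 and 1.02 on the HS arrays and 0.106, 0.116 and 0.112 on the NS+LPS arrays and 0.188, 0.194 and 0.216 on the HS+LPS arrays, with no overlap between any groups. LPS lowered it 20.4-fold without salt (-4.35, SE 0.0744, adjusted p = 1.16e-11; -3.35 with normexp) and 5.69-fold with it (-2.51, SE 0.0744, adjusted p = 7.47e-10; -1.80 with normexp). Salt lowered it without LPS (-1.01, SE 0.0744, adjusted p = 7.95e-06) and raised it with LPS (0.84, SE 0.0744, adjusted p = 9.23e-06; interaction 1.85, SE 0.105, adjusted p = 3.22e-06).

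Lrrk2, a kinase that phosphorylates several Rab proteins and is recruited by Rab7l1, read 1.49, 1.49 and 1.51 on the NS arrays and 1.99, 2.04 and 2.42 on the HS arrays and 2.18, 1.98 and 1.98 on the NS+LPS arrays and 9.23, 7.88 and 10.3 on the HS+LPS arrays. The HS+LPS arrays stood apart from all others. Salt raised it 4.44-fold with LPS (2.15, SE 0.0994, adjusted p = 1.88e-07) and 1.43-fold without (0.52, SE 0.0994, adjusted p = 0.00266), and the interaction was called (1.64, SE 0.141, adjusted p = 3.44e-05). Appl2, of early signalling endosomes, rose with salt in LPS-treated cells (1.32, SE 0.0925, adjusted p = 2.00e-06), and Rab11fip1, an effector of Rab11, fell (-0.95, SE 0.133, adjusted p = 2.01e-04; -0.28 with normexp). Rab11fip4 and Osbpl1a fell with salt without LPS (-0.62, SE 0.107, adjusted p = 0.00141, and -0.52, SE 0.0637, adjusted p = 1.67e-04). LPS lowered the motor Myo5a (-1.59, SE 0.0753, adjusted p = 2.34e-08) and raised Rilpl2 (1.57, SE 0.0545, adjusted p = 2.30e-09) without salt, and raised Micall2, which binds Rab13, in added salt (1.77, SE 0.0644, adjusted p = 3.29e-09).

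Of 38 measured exchange factors, 6 rose and 6 fell with salt without LPS and 11 rose and 7 fell with salt with LPS, while 14 rose and 14 fell with LPS without salt and 11 rose and 12 fell with LPS in added salt. The shares of all genes that rose and fell were 18.2% and 18.8%, 26.2% and 31.4%, 28.6% and 35.1%, and 30.5% and 41.8%. Rab3il1, which loads Rab8 proteins, read 43.3, 43.8 and 40.4 on the NS arrays and 31.1, 31.1 and 30.3 on the HS arrays and 14.5, 14.3 and 14.7 on the NS+LPS arrays and 10.3, 10.9 and 10.3 on the HS+LPS arrays. It fell stepwise, with no overlap between groups: by 0.46 with salt alone, 1.55 with LPS alone and 1.55 with LPS in added salt (SE 0.0422, adjusted p = 2.67e-05, 3.97e-10 and 3.91e-10). Dennd3, the exchange factor of Rab12, fell with LPS without salt (-1.25, SE 0.0671, adjusted p = 6.27e-08) and rose with salt in LPS-treated cells (0.94, SE 0.0671, adjusted p = 2.29e-06). Rin1 and Rin2, which load Rab5 proteins, went apart with salt without LPS (0.83, SE 0.189, adjusted p = 0.00666, and -0.41, SE 0.115, adjusted p = 0.0182), the former with HS replicate 2 high (0.777, against 0.438 and 0.439). With LPS present, salt lowered Dennd2d (-0.83, SE 0.0568, adjusted p = 1.74e-06) and raised Dennd5a (0.59, SE 0.0587, adjusted p = 2.09e-05). With LPS in added salt, Dennd1b rose (1.14, SE 0.138, adjusted p = 2.84e-05) and the dim Dennd1a fell (-1.19, SE 0.306, adjusted p = 0.00513), though only by 0.05, with no call, under normexp.

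The 8 genes of Rab escort, prenylation and extraction from membranes were all well above background on all 12 arrays. Of these, 2 rose and 1 fell with salt without LPS, and 3 rose and 2 fell with salt with LPS. With LPS, 4 rose and 3 fell without added salt, and 2 rose and 3 fell with it. Of all genes, 18.2% and 18.8%, 26.2% and 31.4%, 28.6% and 35.1%, and 30.5% and 41.8% rose and fell in these comparisons. Chml, a Rab escort protein that presents new Rab proteins for prenylation, fell with LPS by 0.70 and 1.04 (SE 0.0519, adjusted p = 8.11e-07 and 3.48e-08). Rabggta, the alpha subunit of the prenylating enzyme, fell with LPS (-0.59 and -0.59, adjusted p = 2.32e-06 and 1.85e-06) and rose with salt (0.22, adjusted p = 0.00693). Rabggtb, its beta subunit, rose with salt without LPS (0.29, SE 0.0513, adjusted p = 0.00145), while Rabac1 fell (-0.15, SE 0.0495, adjusted p = 0.0415), a call that ended without NS replicate 1 or 2 or any HS array (-0.10 without NS replicate 1, adjusted p = 0.122). With LPS, salt lowered Rabif (-0.81, SE 0.206, adjusted p = 0.00707), with HS+LPS replicate 3 lowest (0.644, 0.572 and 0.350 against 0.906, 0.895 and 0.863).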

How the data were processed

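Total RNA of RAW264.7 cells was measured on 12 Agilent 1-colour (Cy3) mouse arrays. Per the file headers, Agilent Feature Extraction 10.7.3.1 made the deposited intensity values (background-subtracted, not normalized between arrays) and the deposited flags for spots well above background; probe coordinates are on mm9. The deposited value table holds intensity values whose normalization is not given in the sources used here, and it served as an alternative.

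Here each processed intensity was divided by its array's 75th percentile over 59305 non-control spots and taken as log2. Spots of a probe were averaged and the brightest probe stood for a gene. All 12 arrays were fitted with limma 3.58.1 (lmFit and eBayes, R 4.3.3, 8 residual degrees of freedom), with Benjamini-Hochberg adjustment over 13856 genes; every adjusted p is from this test unless said. No spot was saturated, and precision is limited by how many arrays there are. The fit was also run on simulated data with independent noise and no slide effect. That run cannot speak to the separate slide of the HS+LPS arrays.

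The text names Rab15 with all its probes, the largest called rises and falls per comparison, members at least 2-fold changed or above background in 1 group of a pair, members whose probes disagreed, the largest called regulators (2 are not reported here), Rep15, and the neighbours and closest correlates of Rab15. Members and lists were chosen with earlier results of these data known. Promoter bases are from RefSeq, with 79 of 83 Rab probes matched to it by accession.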

Additional observations from a re-analysis of the deposited data

Results flagged for a closer look

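The salt effect differed between cells with and without LPS for 18 members by limma's interaction term. Each is given with its log2 salt effect without and with LPS, in that order, and the difference between them. Since HS+LPS had a slide and scan day to itself, these and the interaction cannot be told apart.

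Members whose fitted effect was below 0 without LPS and above 0 with it were Rab42 (-0.39 and 0.49, difference 0.88, adjusted p = 0.0240), Rab13 (-0.53 and 0.15, difference 0.68, adjusted p = 1.84e-04), Rab43 (-0.04 and 0.55, difference 0.59, adjusted p = 1.05e-04), Rab31 (-0.03 and 0.48, difference 0.51, adjusted p = 0.00258) and Rab4b (-0.21 and 0.19, difference 0.40, adjusted p = 0.00295), and likewise Rab40c (-0.09 and 0.24, difference 0.33, adjusted p = 6.70e-04), Rab5b (-0.05 and 0.24, difference 0.29, adjusted p = 0.00195) and Rab24 (-0.09 and 0.14, difference 0.23, adjusted p = 0.0164). Members above 0 in both states and more so with LPS were Rab4a (0.14 and 0.63, difference 0.49, adjusted p = 3.55e-04), Rab34 (0.26 and 0.61, difference 0.35, adjusted p = 0.00612) and Rab3a (0.09 and 0.36, difference 0.27, adjusted p = 0.0409). Rab3d and Rab20 were below 0 in both and less so with LPS: Rab3d (-0.52 and -0.18, difference 0.33, adjusted p = 0.0363) and Rab20 (-0.43 and -0.12, difference 0.30, adjusted p = 0.00763). The Rab24 interaction call was lost with normexp (0.15, adjusted p = 0.109) and when dim probes were kept (0.23, adjusted p = 0.0538). That of Rab5b was lost with the mean of its probes (0.35, adjusted p = 0.0601), and 1 of its 4 probes was called.

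The members with the lower value under LPS were Rab33a (-0.12 and -1.05, difference -0.93, adjusted p = 0.00497), Rab32 (-0.67 and -1.18, difference -0.51, adjusted p = 0.00322) and Rab12 (-0.14 and -0.38, difference -0.25, adjusted p = 0.0493), below 0 in both states, and Rab35 (0.08 and -0.25, difference -0.32, adjusted p = 0.00484) and Rab5c (0.01 and -0.30, difference -0.31, adjusted p = 0.0368), below 0 with LPS only.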

How the results depend on the processing

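The counts of called members stayed within 1.5 times of the reported ones in every alternative run. Leaving out 1 array in turn gave 11 to 13 for salt without LPS, 22 to 28 for salt with LPS, 31 to 33 for LPS without salt, 34 to 36 for LPS with salt and 14 to 18 for the interaction. After removal of group means, 18 same-numbered pairs of arrays had r from -0.20 to 0.12, 2 of them over 0.1. Pairs with different numbers had r from -0.15 to 0.23. With 3 arrays per group such correlations cannot tell whether replicate numbers pair the samples. With the replicate number as a block the counts were 13, 28, 31, 36 and 15. Of 2301 recomputed values of the 132 member calls and of the Rab15 interaction, 2087 kept direction and call, 206 lost the call, 3 (all of the Rab15 interaction) gained it and 5 turned direction. These 3 include the mean of both Rab15 probes, which is given above with no test. Counted over all members, 103 values gained a call that the reported fit did not make, in 39 member and comparison pairs. Those 5 were Rab37 for salt with LPS under normexp (0.0658) and, with the mean of a gene's probes, Rab10 (-0.11 without salt, -0.0022 with it) and Rab6a (-0.0594 and -0.0423) for LPS. The construction of that mean, over probes that moved apart, gives the latter 4; the cause for Rab37 was not tested. Of 1067 values of regulators, 1033 kept direction and call and 34 lost the call. For salt without LPS, the split of called members was 5 higher and 14 lower both with quantile normalization and with the deposited value table, and 4 and 12 with normexp. A slide block could not separate HS+LPS, so it was run only for comparisons without it; slide as a random block, with a correlation of -0.02, and regulators under all alternatives were chosen after seeing the data. Signal over background limits Rab17, Rab33a, Rab37, Rab39, Rab42 and Rab44.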
